A study of Mus musculus with 2 samples.

Results

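The collagen genes were followed through a single-cell RNA sequencing (scRNAseq) experiment on primary cultures of mouse dorsal root ganglia (DRGs). Members were all rows of the count tables whose gene symbol reads Col, a number, a and a number, which gave 44 of 31053 genes. Of these, 43 had at least 1 UMI (unique molecular identifier, a tag that counts 1 captured transcript) in the cells kept, and Col13a1 had none. In 21 members the level reached 20 CPM (UMIs of the gene per 1000000 UMIs of a cell group) in both libraries in at least 1 cell class, and in 17 it reached 100 CPM. The ganglia came from 2-week-old Swiss mice of both sexes, were digested with collagenase and dispase, and the cells were kept for 3 days on laminin-coated plates and released with trypsin. There were 2 libraries, A and B, of this single condition, with no mutant, injury or untreated group. Neither the labels nor the methods say whether A and B came from separate animals or cultures, so every p-value below measures only the spread between these libraries, which may be technical. Because the tags sit at the 3′ end of transcripts and are counted once per molecule, CPM values were not divided by gene length.

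Collagens are secreted proteins in which chains coil into a triple helix, a fold that needs glycine at each Gly-X-Y step. Fibrillar collagens (types I, II, III, V, XI, XXIV and XXVII) have a long helix, unbroken in most of these types, and assemble into fibrils. Basement membrane collagens (IV, XV and XVIII) have interrupted helices, and type IV forms the sheet that surrounds Schwann cells, satellite glial cells (SGCs), capillaries and perineurium. Type VI makes beaded filaments, FACIT collagens (such as XII, XIV and XVI) sit on the surface of fibrils, type VIII forms open networks, and type VII anchors epithelia to the layer beneath. In peripheral nerve, endoneurial fibroblasts and Schwann cells are both known to make collagens.

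The difference between fibrillar and basement membrane chains can be read in the coding sequence, and 1 stretch of each kind is shown because the results below separate these groups. Glycine is encoded by GGN, and GGN codons are in capitals. The stretch from Col1a1 (codons 168 to 187) keeps GGN in each triplet of codons, while the stretch from Col4a1 (codons 148 to 167) breaks the pattern.
Col1a1: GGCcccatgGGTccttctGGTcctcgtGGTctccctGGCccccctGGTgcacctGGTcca
Col4a1: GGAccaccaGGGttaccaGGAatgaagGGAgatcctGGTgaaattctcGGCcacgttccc
In the GENCODE coding sequences, which covered 44 of 44 members, the longest unbroken run of Gly triplets was 216 to 344 triplets long in the 11 fibrillar members (median 338). It was 30 to 66 triplets long in the 8 basement membrane members (median 41). In the other groups the longest run ranged between 23 and 113 triplets. Col1a1 lies at chr11:94936224-94953042 on the plus strand and Col4a1 at chr8:11198423-11312826 on the minus strand (GRCm38). Col4a1 and Col4a2 are transcribed in opposite directions from start sites 21 bases apart. Other head-to-head pairs were Col4a3 and Col4a4, 72 bases apart, and Col4a5 and Col4a6, 1309 bases apart. Col3a1 and Col5a2 are neighbours 24615 bases apart on opposite strands, and Col6a1 and Col6a2 lie 85162 bases apart on the same strand.

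Promoters are shown for 4 members that led in different cells: Col3a1 and Col8a1, which were higher in fibroblasts, and Col28a1 and Col16a1, which were higher in glia. Each line is the 150 bases before the RefSeq start site (GRCm38.p6), on the strand of the gene. Capitals mark, on either strand, GGGCGG (known as the GC box), CCAAT (the box of that name), TATAAA (the TATA box) or TGANTCA (the AP-1 site).
Col3a1, chr1:45311388-45311537, plus strand: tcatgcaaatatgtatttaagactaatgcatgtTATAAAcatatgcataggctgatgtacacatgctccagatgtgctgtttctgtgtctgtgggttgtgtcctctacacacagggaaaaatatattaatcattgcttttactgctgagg
Col8a1, chr16:57754738-57754887, minus strand: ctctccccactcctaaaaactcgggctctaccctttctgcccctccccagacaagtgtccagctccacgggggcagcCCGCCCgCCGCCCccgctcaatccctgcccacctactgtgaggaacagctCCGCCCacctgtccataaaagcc
Col28a1, chr6:8192618-8192767, minus strand: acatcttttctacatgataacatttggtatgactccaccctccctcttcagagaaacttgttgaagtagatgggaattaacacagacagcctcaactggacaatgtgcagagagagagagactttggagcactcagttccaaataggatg
Col16a1, chr4:130047690-130047839, plus strand: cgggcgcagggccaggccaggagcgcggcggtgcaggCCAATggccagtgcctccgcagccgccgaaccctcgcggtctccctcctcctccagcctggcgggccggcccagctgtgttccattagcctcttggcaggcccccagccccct
Over the 250 bases before 32851 mouse start sites, GGGCGG was present in 32.7%, CCAAT in 33.9%, TATAAA in 12.4% and TGANTCA in 6.75%. Of the 38 start sites that matched 35 collagen genes, 57.9% held GGGCGG, 34.2% CCAAT, 13.2% TATAAA and 2.63% TGANTCA, the last being Col6a1 alone. These are matches of letters and say nothing on binding.

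The libraries held 5175 (A) and 5773 (B) barcodes with 40355401 and 38945848 UMIs, and 10730 of 10948 barcodes passed the limits of at least 200 genes and at most 10% mitochondrial UMIs. Clustering without the collagens and their pathway genes gave 396 fibroblasts, 815 neurons, 83 macrophages and 9436 glia. The median cell had 11474.5 UMIs in fibroblasts, 28273 in neurons, 9203 in macrophages and 4724 in glia. The summed fibroblast markers (Dcn, Lum, Mgp and others) were at 19892 CPM in fibroblasts, 96.6 CPM in neurons, 466 CPM in macrophages and 57.4 CPM in glia. The 2 libraries shared 8 barcode sequences.

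Collagens took up a larger part of the fibroblast transcriptome than of any other class. They made up 1.08% of the UMIs of fibroblasts in A and in B, 0.0506% and 0.0622% in neurons, 0.217% and 0.104% in macrophages, and 0.579% and 0.578% in glia. Fibroblasts were above glia, and glia above the other classes, in both libraries. The order of macrophages and neurons was not stable: with the highest doublet scores removed the share was 0.107% and 0.0544% in macrophages and 0.0478% and 0.0598% in neurons, and as a mean over cells it was 0.144% and 0.0759% in macrophages and 0.0732% and 0.102% in neurons. The median fibroblast spent 0.987% of its UMIs on collagens, the median neuron 0.0423% and the median glial cell 0.571%, while the median macrophage had no collagen UMI. Glia, the most numerous class, held 147032 and 151769 of the 176834 and 184119 collagen UMIs of A and B. Fibrillar members accounted for 53.0% of collagen UMIs in fibroblasts, 56.5% in neurons, 64.8% in macrophages and 57.3% in glia. Basement membrane members accounted for 35.9% in fibroblasts, 31.4% in neurons, 25.5% in macrophages and 31.0% in glia. The groups that set fibroblasts and glia apart most, in relative terms, were beaded filament, FACIT and a last group of Col7a1, Col26a1 and Col28a1. Beaded filament collagens gave 7.69% of collagen UMIs in fibroblasts against 0.752% in glia. FACIT collagens gave 1.31% in fibroblasts against 6.56% in glia, and the last group 0.506% against 3.48%.

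**Figure D1:**
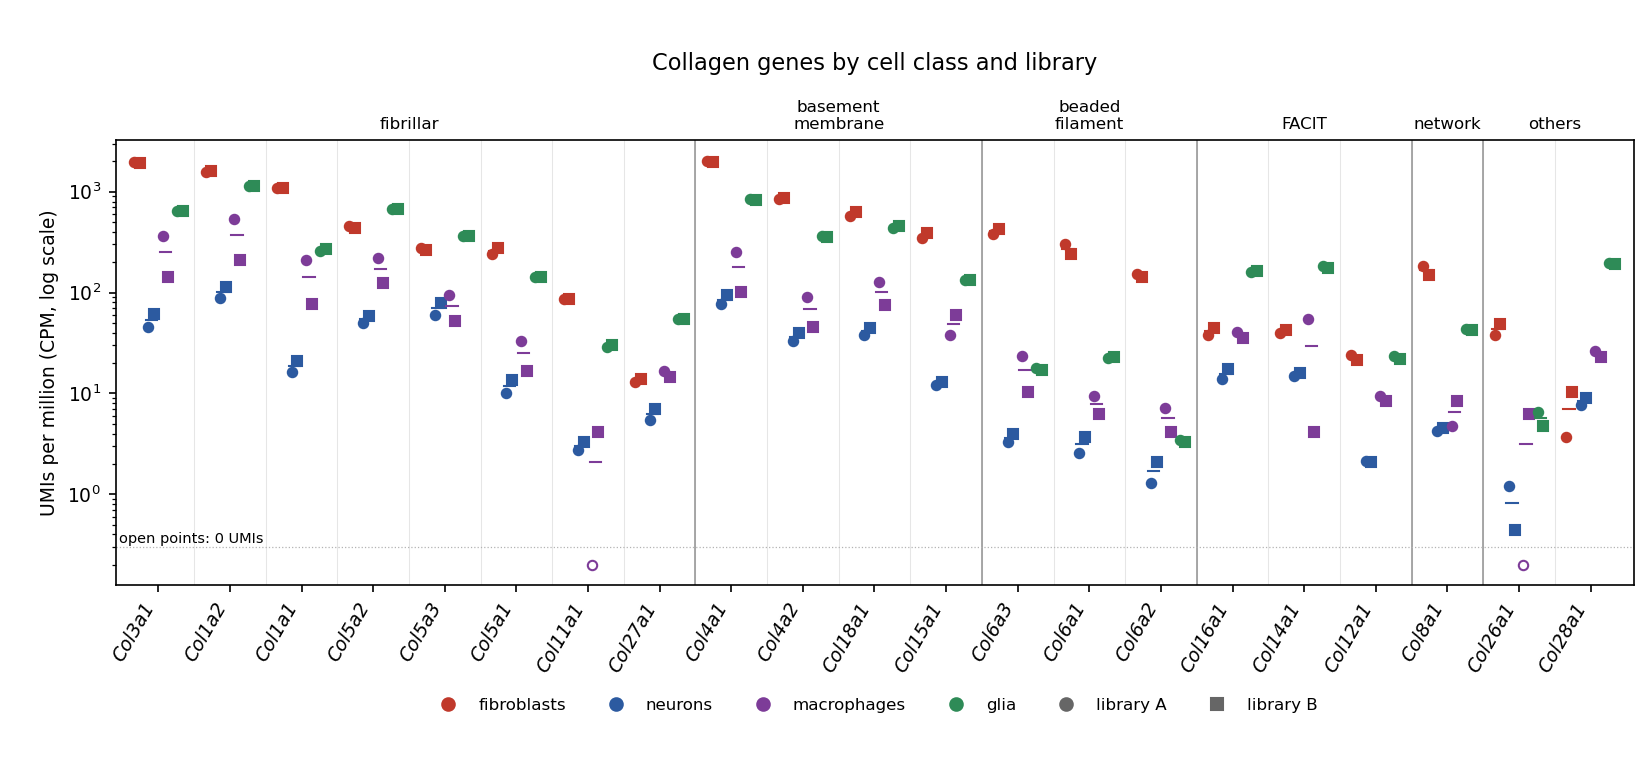
The 21 collagen genes that reached 20 CPM, in CPM on a log axis, with library A as circles, library B as squares and a bar at the mean, for fibroblasts, neurons, macrophages and glia. The type VI genes are far higher in fibroblasts than in glia (Col6a2, 152 and 141 CPM against 3.47 and 3.27 CPM), Col28a1, Col14a1 and Col16a1 are highest in glia, and the libraries lie farther apart in macrophages than in the other classes for most genes.

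Most fibrillar chains were higher in fibroblasts than in glia, but type V chains were not uniform. Col3a1, the chain of type III fibrils of pliable tissue, had 1956 and 1926 CPM in fibroblasts of A and B, against 647 and 643 CPM in glia (log2 fold change 1.82, SE 0.08, adjusted p = 2.1e-18, edgeR's quasi-likelihood test). Col1a1, a chain of type I collagen, had 1099 and 1092 CPM in fibroblasts, against 259.8 and 270.3 CPM in glia (log2 fold change 2.28, SE 0.07). Its partner chain Col1a2 differed less, with 1559 and 1602 CPM in fibroblasts against 1130.1 and 1139.7 CPM in glia (log2 fold change 0.71, SE 0.08). Col1a2 thus differed less between the classes than Col1a1. Col5a1, a chain of type V collagen that controls fibril width, had 239 and 279.7 CPM in fibroblasts, against 143 and 144 CPM in glia (log2 fold change 1.09, SE 0.07). Its partner Col5a2 went the other way, with 459 and 433 CPM in fibroblasts against 682 and 672 CPM in glia (log2 fold change -0.37, SE 0.07, adjusted p = 1.7e-05), although this call was lost with DESeq2 (-0.21, adjusted p = 0.39) and at a mitochondrial limit of 5% (-0.18, adjusted p = 0.060). For Col5a3, a type V chain known from nerve, the level was 279 and 264 CPM in fibroblasts, against 363 and 365 CPM in glia. Its log2 fold change was -0.19 (SE 0.08, adjusted p = 0.037), and the call did not hold under other scaling (-0.03 with RLE factors) and turned at a mitochondrial limit of 5% (0.24). At that limit the glia kept were 706 repair-like and 416 and 229 cycling cells, with no SGC-like cluster. Values at 5% therefore compare a different set of glia. Col11a1, a chain of thin cartilage-type fibrils, was higher in fibroblasts (85.5 and 87.1 CPM) than in glia (29.2 and 30.4 CPM). Col27a1, an atypical fibrillar chain, was lower in fibroblasts (13.1 and 14.0 CPM) than in glia (55.2 and 54.8 CPM; log2 fold change -1.79, SE 0.16).

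Basement membrane chains were abundant in fibroblasts and in glia, and every member at 20 CPM or more was higher in fibroblasts. Col4a1 was the most abundant collagen of fibroblasts at 2036 and 1993 CPM, against 855 and 834 CPM in glia (log2 fold change 1.49, SE 0.07). Col4a2, which joins with the Col4a1 chain in the trimer, had 852 and 863 CPM in fibroblasts, against 362 and 358 CPM in glia (log2 fold change 1.49, SE 0.06). The pair thus moved by the same amount. Col18a1, the source of endostatin, differed less, with 578 and 634 CPM in fibroblasts against 441 and 457 CPM in glia (log2 fold change 0.66, SE 0.06). Col15a1, its relative of the outer basement membrane zone, had 348 and 386 CPM in fibroblasts, against 132 CPM in glia of A and of B (log2 fold change 1.71, SE 0.07). Among the rarer type IV chains, Col4a5 was higher in fibroblasts (9.82 and 8.21 CPM against 2.09 and 1.64 CPM in glia) and Col4a4 was lower (1.87 and 1.23 CPM against 5.48 and 6.09 CPM), the Col4a4 call being lost with DESeq2 (adjusted p = 0.051).

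All 3 type VI chains at 20 CPM or more were higher in fibroblasts. Col6a2 had 152 and 141 CPM in fibroblasts, against 3.47 and 3.27 CPM in glia (log2 fold change 5.67, SE 0.12). Col6a3 had 383 and 426 CPM in fibroblasts, against 18.1 and 16.9 CPM in glia (log2 fold change 4.77, SE 0.08). Col6a1 had 305 and 239 CPM in fibroblasts, against 22.6 and 22.8 CPM in glia (log2 fold change 3.81, SE 0.09). All these chains are needed to build type VI collagen. Over all glia, Col6a1 and Col6a3 were at similar levels with very little Col6a2. In glial clusters 2 and 0, described below, there were 4.10 and 0.594 Col6a1 UMIs per Col6a3 UMI. After 2000 UMIs were drawn per cell, 21.1% of fibroblasts and 0.732% of glia had a Col6a2 UMI, against 0.240% of neurons (54.3%, 1.70% and 3.57% before drawing). Col6a6 was seen in fibroblasts only, with 5 and 7 UMIs, a number too small for a test. In macrophages 3 UMIs were worth 7.13 CPM (A) and 6.25 CPM (B), so a similar level could be missed there.

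Among the remaining groups, members led in fibroblasts or in glia. Col8a1, a network chain of vessel walls, was higher in fibroblasts (185 and 148 CPM) than in glia (43.4 and 42.4 CPM; log2 fold change 2.18, SE 0.09). Col26a1, a little-studied short collagen, was higher in fibroblasts as well (38.3 and 48.5 CPM against 6.54 and 4.79 CPM). Glia led in Col28a1, a collagen known from Schwann cell basement membranes, which had 3.74 and 10.3 CPM in fibroblasts, against 197 and 191 CPM in glia (log2 fold change -4.51, SE 0.17). Its promoter, shown above, held none of the motifs in 150 bases. The fibril-surface chains Col14a1 (39.7 and 42.7 CPM in fibroblasts, against 185 and 173 CPM in glia) and Col16a1 (38.3 and 44.4 CPM in fibroblasts, against 159 and 162 CPM in glia) were lower in fibroblasts by 1.88 and 1.72 on the log2 scale. Col12a1 did not differ beyond the error (23.8 and 21.4 CPM against 23.7 and 22.0 CPM; log2 fold change 0.22, SE 0.16, adjusted p = 0.25). Col9a2 (14.5 and 12.3 CPM) and Col9a3 (19.2 and 19.7 CPM), chains of the cartilage collagen IX, were higher in fibroblasts than in glia (0.433 and 0.533 CPM, and 12.6 and 12.1 CPM). Col19a1 had no UMI in fibroblasts, and against the floor of 3 UMIs per library it was at least 1.40-fold (A) and 1.79-fold (B) lower than in glia. In all, 18 of the 28 members tested were higher in fibroblasts and 8 lower, where 25.0% of 13795 genes were called higher and 30.9% lower. The median log2 fold change of the members was 1.29, against -0.14 over all genes. Exchanging TMM for RLE factors moved the median of all genes by 0.15 here, by 0.18 in the neuron comparison and by 0.26 in the macrophage comparison.

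Collagens and fibroblast markers were set side by side as levels in glia relative to fibroblasts. Of the 19 collagens at 20 CPM or more in fibroblasts of both libraries, the median level in glia was 41.9% of the fibroblast level, with a range of 2.30% (Col6a2) to 436% (Col14a1). Of 7 fibroblast markers, the median level in glia was 0.339% of the fibroblast level, and Fbln1 (60.3%) lay highest and Dcn (0.0461%) lowest. The ranges overlapped. Endothelial markers summed to 92.6 CPM in fibroblasts and 16.3 CPM in glia, and pericyte and smooth muscle markers to 443 CPM in fibroblasts and 105 CPM in glia. The part of any of these cells in the collagen levels was not tested.

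**Figure D2:**
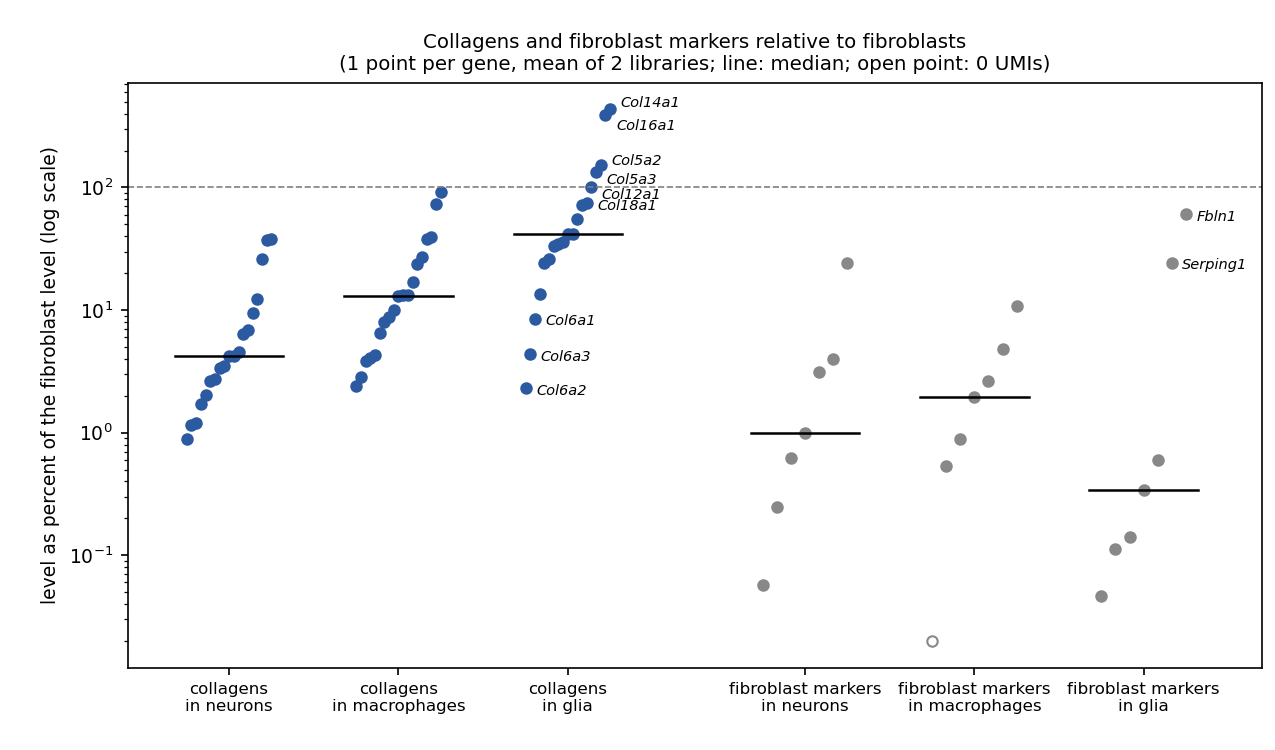
Level in neurons, macrophages and glia as a percent of the level in fibroblasts (log axis), with 1 point per gene (mean of 2 libraries), for 19 collagens (left) and 7 fibroblast markers (right); the bar is the median and the dashed line marks 100%. Collagens in glia have a median of 41.9%, against 0.339% for the fibroblast markers, while the type VI chains sit lowest among the collagens.

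The proportions between partner chains differed by class for type I and type V, and hardly for type IV. There were 2.35 ± 0.0565 Col4a1 UMIs per Col4a2 UMI in fibroblasts, 2.34 ± 0.0238 in neurons, 2.52 ± 0.416 in macrophages and 2.35 ± 0.0224 in glia (mean and SD over 2 libraries). By contrast, Col1a1 per Col1a2 was 0.693 ± 0.0166 in fibroblasts, 0.185 ± 0.00127 in neurons, 0.379 ± 0.0232 in macrophages and 0.233 ± 0.00516 in glia. Col5a2 per Col5a1 was 1.73 ± 0.260 in fibroblasts, 4.63 ± 0.423 in neurons and 4.73 ± 0.0749 in glia. Neurons and glia were close to each other in Col5a2 per Col5a1 and apart from fibroblasts. In Col5a3 per Col5a1 they were apart, with 5.905 ± 0.0265 in neurons, 2.54 ± 0.0028 in glia and 1.05 ± 0.158 in fibroblasts. Col6a1 per Col6a2 was 1.85 ± 0.224 in fibroblasts, 1.89 ± 0.149 in neurons and 6.73 ± 0.313 in glia.

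Nearly all members were lower in neurons than in glia. Of 28 members tested, 26 were lower and 1 was higher in neurons, where 43.0% of 13795 genes were lower and 40.9% higher, and the median log2 fold change of the members was -3.29 against -0.04 over all genes. Col1a2 was the most abundant collagen of neurons at 89.2 and 113 CPM, against 1130.1 and 1139.7 CPM in glia. Col28a1 was lowest relative to glia (7.65 and 9.01 CPM against 197 and 191 CPM; log2 fold change -4.52, SE 0.10), and Col5a3 was the least reduced of the abundant members (60.1 and 79.5 CPM against 363 and 365 CPM; log2 fold change -2.36, SE 0.07). The 8 glial markers were themselves found in neurons at a median of 11.5% of their glial level, S100b lying highest at 95.7%. For 18 collagens at 20 CPM or more in glia, the median was 9.35%, from 4.30% (Col28a1) to 19.2% (Col5a3). The part of glial RNA in the collagen UMIs of neurons was not tested.

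Col7a1, the anchoring fibril collagen, was the only member called higher in neurons than in glia, a comparison that leaves out fibroblasts. It had 6.45 and 6.70 CPM in neurons (75 and 61 UMIs), against 1.26 and 1.64 CPM in glia (32 and 43 UMIs), a log2 fold change of 2.20 (SE 0.25, adjusted p = 1.8e-09). Among the neuron clusters it stood at 12.01 and 10.5 CPM in the cluster led by Anxa1 and Ano3 and at 12.9 and 13.2 CPM in the cluster led by Penk and Crh. In the clusters led by Lyz2 and Ly6c1, by S100b and Ngfr, and by Tspan8 and Mrgpra3 it had 0.447 to 4.51 CPM. The libraries of the first pair of clusters did not overlap with those of the other 3. Col7a1 lies at chr9:108953586-108984875 on the plus strand, 1135 bases from Ucn2, with the microRNA gene Mir711 inside it on the same strand.

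Within neurons, 17 of 18 members tested differed in at least 1 of 5 clusters from the mean of the other clusters, beside 68.9% of 11184 genes. At a mitochondrial limit of 5%, where 2 clusters could be fitted, 7 of 13 members were called, beside 1937 of 9620 genes. The Penk and Crh cluster, whose cells had a median of 12500 UMIs, had the highest collagen share (0.0910% and 0.0838% of UMIs), and the Tspan8 and Mrgpra3 cluster the lowest (0.0170% and 0.0122%). Glial markers summed to 1062 and 817 CPM in the Penk and Crh cluster, 166 and 99.6 CPM in the Tspan8 and Mrgpra3 cluster, and 493 to 661 CPM in the other 3, and their part in the collagen difference was not tested. Col1a2, for example, had 173 and 147 CPM in the Penk and Crh cluster and 20.9 and 17.0 CPM in the Tspan8 and Mrgpra3 cluster. Col5a3 was higher in the Anxa1 and Ano3 cluster (93.2 and 116 CPM) and in the Penk and Crh cluster (100.3 and 112 CPM) than in the cluster led by S100b and Ngfr (25.04 and 25.6 CPM). Col25a1, a transmembrane collagen of neurons, was nearly limited to the S100b and Ngfr cluster, with 14 UMIs in each library (6.26 and 8.54 CPM). It passed the filter on low counts only through that cluster, so its test is no further support. The other 4 clusters tested held 1 Col25a1 UMI between them.

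Macrophages were few, and their libraries differed. Of 28 members tested, 18 were lower and 0 higher than in glia, where 21.9% of all genes were lower and 12.2% higher, and the median log2 fold change was -1.89 against -0.42 over all genes. No member was higher at an unadjusted p under 0.05 either (0 of 28 with edgeR), and DESeq2 called 15 lower and 0 higher. Col1a2 was the most abundant member, with 535 and 212 CPM in macrophages against 1130.1 and 1139.7 CPM in glia (log2 fold change -1.49, SE 0.14). Col18a1 had 128 and 74.99 CPM against 441 and 457 CPM in glia, and Col28a1 had 26.1 and 22.9 CPM against 197 and 191 CPM. Library A, with 37 macrophages, was higher than B, with 46, in the abundant chains (Col1a1 at 212 against 77.1 CPM, Col3a1 at 361 against 142 CPM, Col4a1 at 254 against 102 CPM). Fibroblast markers summed to 818 CPM in macrophages of A and 115 CPM in those of B. Collagens at 20 CPM or more in glia had a median of 23.2% of their glial level in macrophages, and glial markers a median of 21.6%. When the cells with the highest doublet scores were left out, the log2 fold change of Col6a3 was -3.19 in place of 0.08.

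Within glia, the SGC-like and repair-like states carried different sets of collagens. Glial cluster 2 (2237 cells, led by Tgfbi, Igfbp5, Atf3 and Hmga2) was repair-like, and cluster 0 (3604 cells, led by Ccnd2, Apoe and Ndrg2) was SGC-like. Cluster 3 (660 cells) scored with the SGC list but was led by Hist1h2bc, Hist1h4i, Pttg1 and Ccnb2, and was left unnamed. The test gave it the weight of cluster 0, and without it no called member changed direction in the repair-like comparison other than Col15a1. Of 27 members tested, 10 were higher and 14 lower in repair-like glia, where 19.5% of 11864 genes were higher and 16.6% lower. The median log2 fold change of the members was -0.58, against 0.03 over all genes. Collagens made up 0.569% and 0.582% of UMIs in cluster 2 and 0.669% and 0.658% in cluster 0. Fibrillar chains gave 67.4% of collagen UMIs in cluster 2 against 54.2% in cluster 0, and basement membrane chains 26.1% against 31.7%.

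Type I and type VI chains were higher in repair-like glia. Col1a1 had 546 and 562 CPM in cluster 2, against 167 and 163 CPM in cluster 0, and its log2 fold change was 2.15 (SE 0.05, adjusted p = 3.6e-44; 1.79 without cluster 3). Col1a2 moved less, with 1367 and 1412 CPM in cluster 2 against 1212 and 1193 CPM in cluster 0 (0.50, SE 0.03; 0.25 without cluster 3). The Col1a1 to Col1a2 ratio was accordingly 0.399 ± 0.00072 in cluster 2 and 0.137 ± 0.00052 in cluster 0, the libraries not overlapping. Col6a1 had 54.2 and 52.1 CPM in cluster 2, against 14.7 and 14.6 CPM in cluster 0 (log2 fold change 2.45, SE 0.13). Col6a2 had 8.43 and 7.67 CPM in cluster 2, against 2.00 and 1.79 CPM in cluster 0 (log2 fold change 2.90, SE 0.38). Col6a3 did not join them and was lower, with 13.9 and 12.1 CPM in cluster 2 against 24.3 and 25.0 CPM in cluster 0. Fibroblast markers summed to 29.9 CPM in cluster 2 and 82.7 CPM in cluster 0, and Mgp, which is on that list, was among the leading genes of cluster 0. The part of fibroblast RNA in these differences was not tested. Col7a1, with 37 UMIs in cluster 2 and 14 in cluster 0, had 3.65 and 4.24 CPM against 0.624 and 1.08 CPM (log2 fold change 2.91, SE 0.57). Other members higher in repair-like glia were Col27a1 (101 and 103 CPM against 68.7 and 65.4 CPM) and Col5a1 (203 and 210.1 CPM against 169.5 and 164 CPM), whose log2 fold changes of 1.05 and 0.87 were 0.65 and 0.35 without cluster 3.

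Basement membrane chains split between the states. Col4a1 had 379 and 409 CPM in cluster 2, against 1083 CPM in cluster 0 of A and of B (log2 fold change -1.36, SE 0.03), and Col4a2 had 192 and 202 CPM against 451 and 449 CPM (log2 fold change -1.04, SE 0.04). The ratio of Col4a1 to Col4a2 was 2.00 ± 0.0323 in cluster 2 and 2.41 ± 0.00948 in cluster 0. Col18a1 went the other way, with 768 and 761 CPM in cluster 2 against 405 and 408 CPM in cluster 0 (log2 fold change 1.15, SE 0.03). Type IV chains were therefore lower and Col18a1 higher in the same cells. Col15a1 was called higher (log2 fold change 0.57, SE 0.06), but this rested on cluster 3: it had 142 and 150.4 CPM in cluster 2, against 154 and 157 CPM in cluster 0, and without cluster 3 the value was -0.04 (adjusted p = 0.59).

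**Figure D3:**
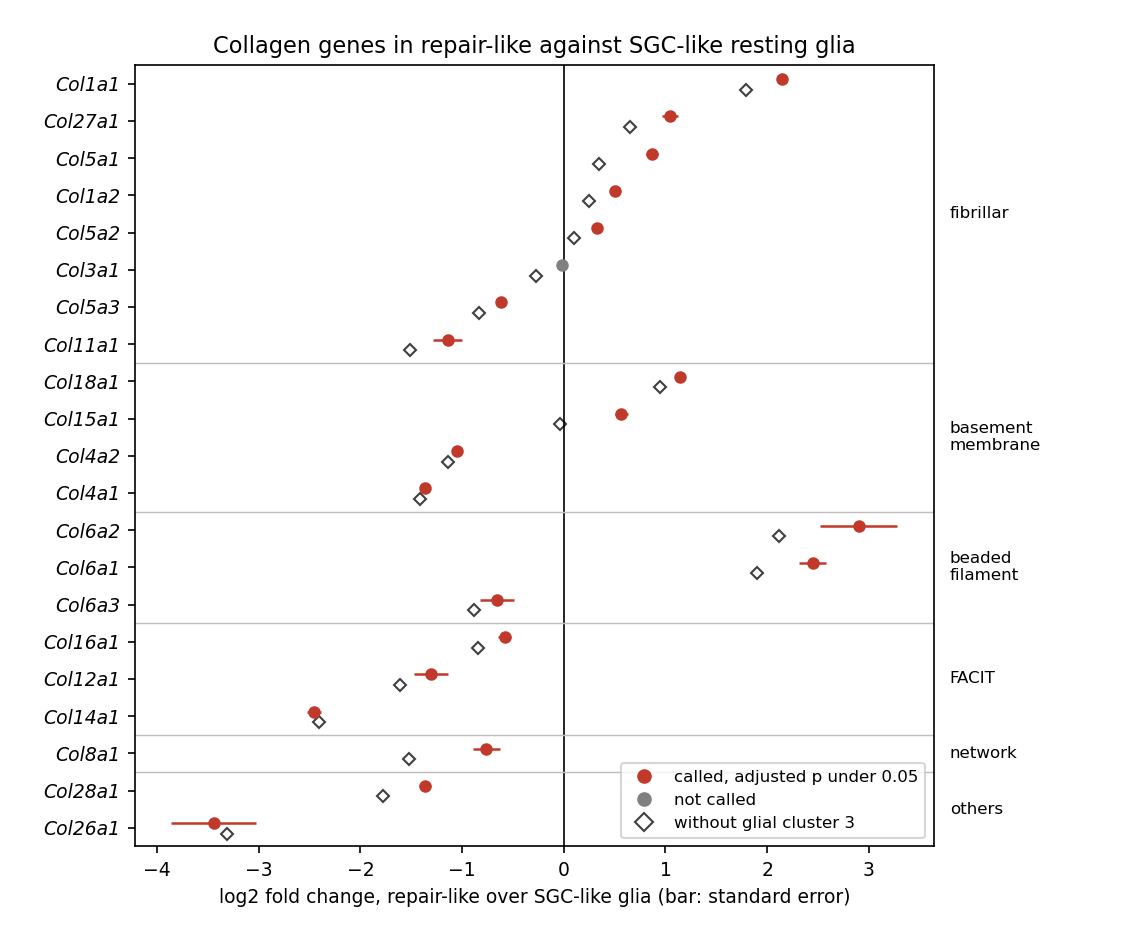
Log2 fold change of 21 collagen genes in repair-like over SGC-like resting glia, grouped by collagen type. Bars are the SE, derived from the test's F value. Filled points are the fit with clusters 0 and 3 as the SGC-like side (red if called, grey if not called). Open diamonds are the fit without cluster 3. Col6a2, Col6a1 and Col1a1 lie at 2.90, 2.45 and 2.15, Col26a1 at -3.44, and Col15a1 falls to -0.04 without cluster 3.

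Fibril-surface and other minor collagens were lower in repair-like glia. Col14a1 had 43.3 and 42.0 CPM in cluster 2, against 240.4 and 229 CPM in cluster 0 (log2 fold change -2.45, SE 0.07), and after drawing 2000 UMIs per cell it was found in 6.99% of cluster 2 and 33.2% of cluster 0 cells (13.0% and 55.4% before drawing; 7.52% of fibroblasts after it). Col28a1 had 90.03 and 88.4 CPM in cluster 2, against 315 and 318 CPM in cluster 0 (log2 fold change -1.36, SE 0.06). Both genes thus marked the SGC-like side. Col12a1 (9.80 and 10.9 CPM against 34.8 and 30.7 CPM), Col16a1 (104 and 119 CPM against 209 and 204 CPM), Col8a1 (19.4 and 26.0 CPM against 69.0 and 66.3 CPM) and Col11a1 (12.8 and 17.2 CPM against 43.7 and 44.7 CPM) were also lower in cluster 2. So was Col26a1, with 7 UMIs in cluster 2 and 129 in cluster 0. Col5a3 was lower by 0.62 on the log2 scale (263 and 283 CPM in cluster 2, against 512 and 489 CPM in cluster 0), unlike its partners Col5a1 and Col5a2 (log2 fold changes 0.87 and 0.33, and 0.35 and 0.10 without cluster 3). Col3a1 was close to equal in the test (log2 fold change -0.01, SE 0.03, adjusted p = 0.79), yet it was lower without cluster 3 (-0.27, adjusted p = 9.8e-10), with 581 and 569 CPM in cluster 2 against 721 and 705 CPM in cluster 0.

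**Figure D4:**
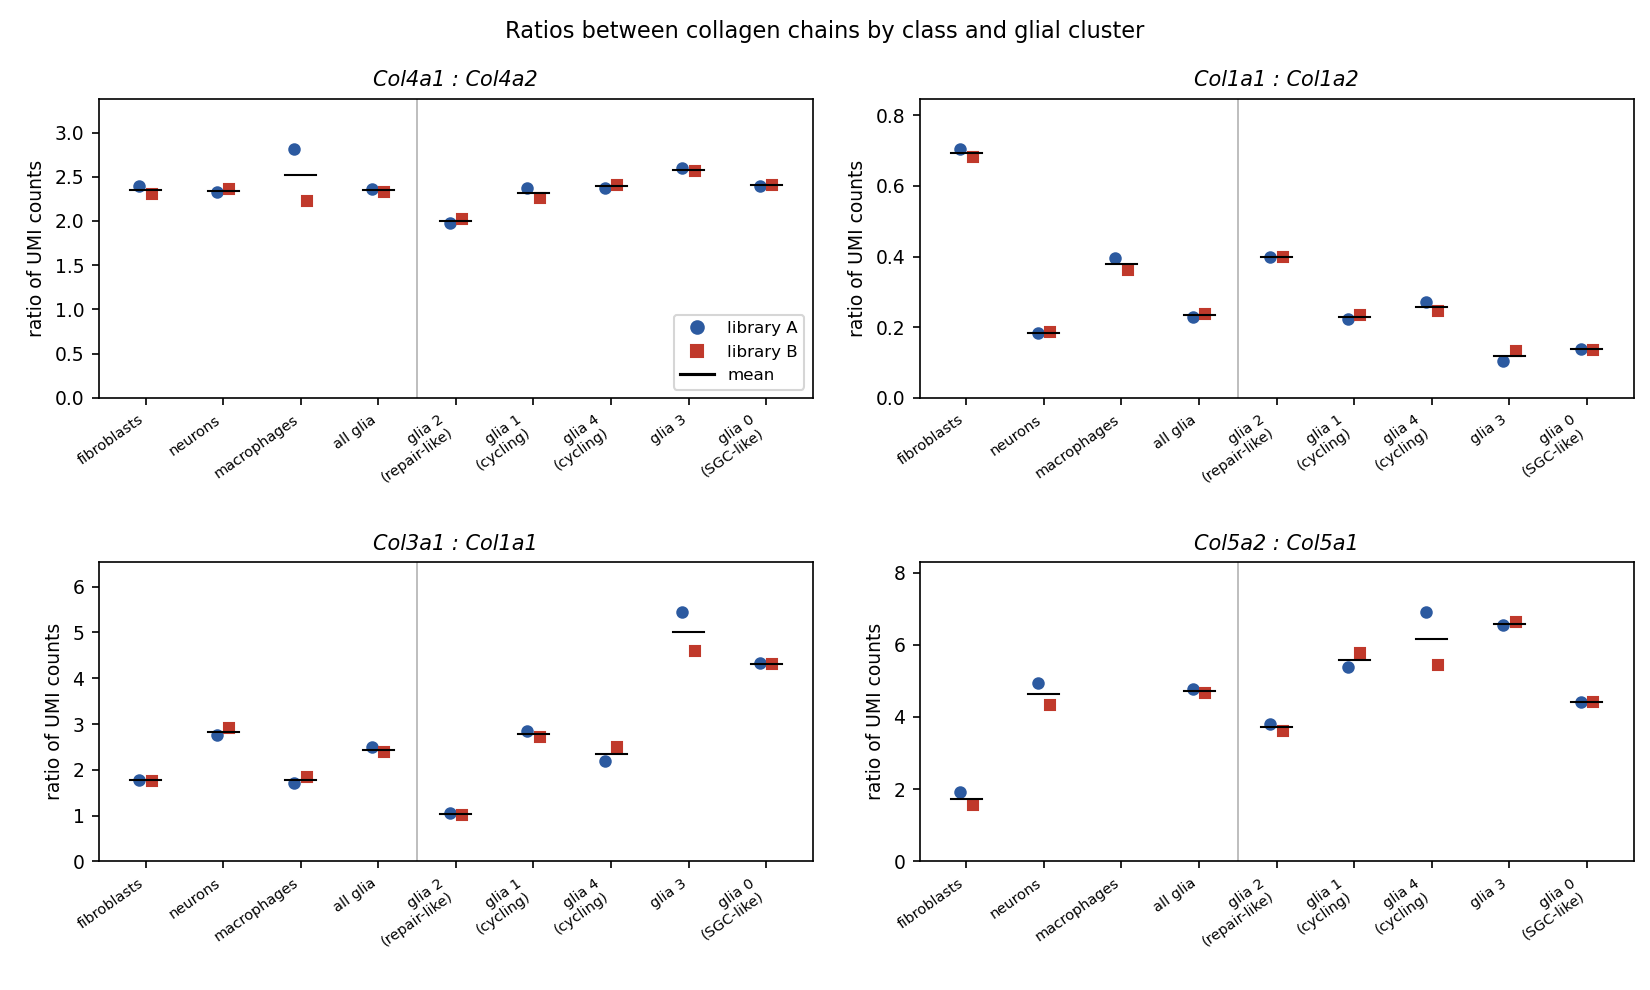
Ratio of UMI counts between collagen chains by class (left of the line) and glial cluster (right), with library A as circles, library B as squares and a bar at the mean, on linear axes from 0; groups with fewer than 10 UMIs of the second gene in a library are not drawn. The mean of Col4a1 to Col4a2 stays between 2.00 and 2.58 in all groups, with macrophages of library A alone at 2.82. The mean of Col1a1 to Col1a2 ranges from 0.118 in glial cluster 3 to 0.693 in fibroblasts.

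Cycling glia were set against resting glia, a side that took in clusters 0, 2 and 3. Cluster 1 (2328 cells, led by histone and S phase genes) and cluster 4 (607 cells, led by Cenpf and Ccnb1) were cycling. Their G2M genes summed to 16005 CPM (cluster 1) and 28852 CPM (cluster 4), against 2531 CPM in cluster 2, 2117 CPM in cluster 0 and 8185 CPM in cluster 3. Of 27 members, 7 were higher and 8 lower in cycling glia, where 25.3% of all genes were higher and 23.4% lower, and the median log2 fold change was -0.01 for the members and for all genes. The balance depended on the setting, with 6 higher and 11 lower of 28 without cluster 3, 5 and 14 of 27 with collagens used for clustering, and 7 and 13 of 28 at a mitochondrial limit of 20%. For 15 of the 21 members at 20 CPM or more, cluster 1 lay between clusters 0 and 2 in both libraries, and for 6 it lay below both: Col1a2, Col5a1, Col5a2, Col15a1, Col18a1 and Col27a1. The same 6 were below both in cluster 4. Positions were not counted over all genes, so these counts do not set collagens apart from other genes. Col27a1 was the clearest, with 29.7 and 28.0 CPM in cluster 1 and 30.5 and 29.1 CPM in cluster 4, against 101 and 103 CPM in cluster 2 and 68.7 and 65.4 CPM in cluster 0 (log2 fold change -1.13, SE 0.08). Col5a1 (-0.42, SE 0.05) and Col18a1 (-0.34, SE 0.03) were lower as well, by more without cluster 3 (-0.77 and -0.57), where Col6a1 (-0.64), Col15a1 (-0.43) and Col8a1 (-0.26) were also called lower. Col4a4, a minor type IV chain, had 12.8 and 12.7 CPM in cluster 4 and 5.39 and 5.97 CPM in cluster 1, against 2.05 and 1.01 CPM in cluster 2 and 4.99 and 6.81 CPM in cluster 0. Col14a1 was higher in cycling glia by 0.50 on the log2 scale, and by 0.98 without cluster 3. Col1a1 was called higher in cycling glia (0.22, SE 0.04), but without cluster 3 it was lower (-0.26), so its direction depends on that cluster.

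The fibroblasts fell into 3 clusters with different collagens. Cluster 0 (190 cells) was led by Trf, Apod and Cst6, cluster 1 (163 cells) by Tagln, Mmp3 and Acta2, and cluster 2 (43 cells) by cell cycle genes. Collagens made up 0.868% and 0.926% of UMIs in cluster 0, 1.22% and 1.29% in cluster 1, and 1.22% and 1.07% in cluster 2. Of 23 members tested, 20 differed in at least 1 cluster from the mean of the others, beside 28.0% of 8437 genes. Cluster 0 was high in Col15a1, with 627 and 616 CPM against 109 and 116 CPM in cluster 1 and 242 and 260.1 CPM in cluster 2 (log2 fold change 2.06, SE 0.10). It was also high in Col26a1 (83.8 and 81.4 CPM against 4.72 to 32.5 CPM in the other clusters), Col11a1 (131 and 125 CPM against 40.2 to 80.6 CPM), Col9a3 (39.6 and 34.5 CPM against 0 to 17.7 CPM) and Col9a2 (31.7 and 22.2 CPM against 1.14 to 5.91 CPM). Although Col9a2, Col9a3 and Col11a1 are known from cartilage, the chondrocyte markers Acan, Matn1, Matn3, Snorc, Comp and Cnmd, of which 5 were in the tables, had 0 UMIs in cluster 0.

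Cluster 0 was in turn low in type VI and VIII chains. Col6a1 had 82.7 and 75.6 CPM in cluster 0, against 454 and 412 CPM in cluster 1 and 479 and 375 CPM in cluster 2 (log2 fold change -2.27, SE 0.13). Col6a2 (53.2 and 47.7 CPM, against 206 and 237 CPM in cluster 1) and Col8a1 (45.3 and 66.6 CPM, against 292 and 247 CPM in cluster 1) followed it. Col12a1 was almost missing from cluster 0, with 1 and 0 UMIs, and had 34.3 and 48.9 CPM in cluster 1 and 51.3 and 26.6 CPM in cluster 2. The 2 non-cycling clusters thus mirrored each other in these chains. The main fibrillar and type IV chains varied less: Col4a1 had 1613 and 1648 CPM in cluster 0, against 2534 and 2500.5 CPM in cluster 1, and Col3a1 had 1537 and 1720.4 CPM against 2189 and 2269 CPM. Pericyte and smooth muscle markers summed to 183 CPM in cluster 0 and 781 CPM in cluster 1, and meningeal markers to 152 CPM in cluster 0 and 75.1 CPM in cluster 1. Glial markers summed to 97.7 CPM in cluster 0, 62.7 CPM in cluster 1 and 844 CPM in cluster 2. The part of these markers in the collagen differences was not tested.

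**Figure D5:**
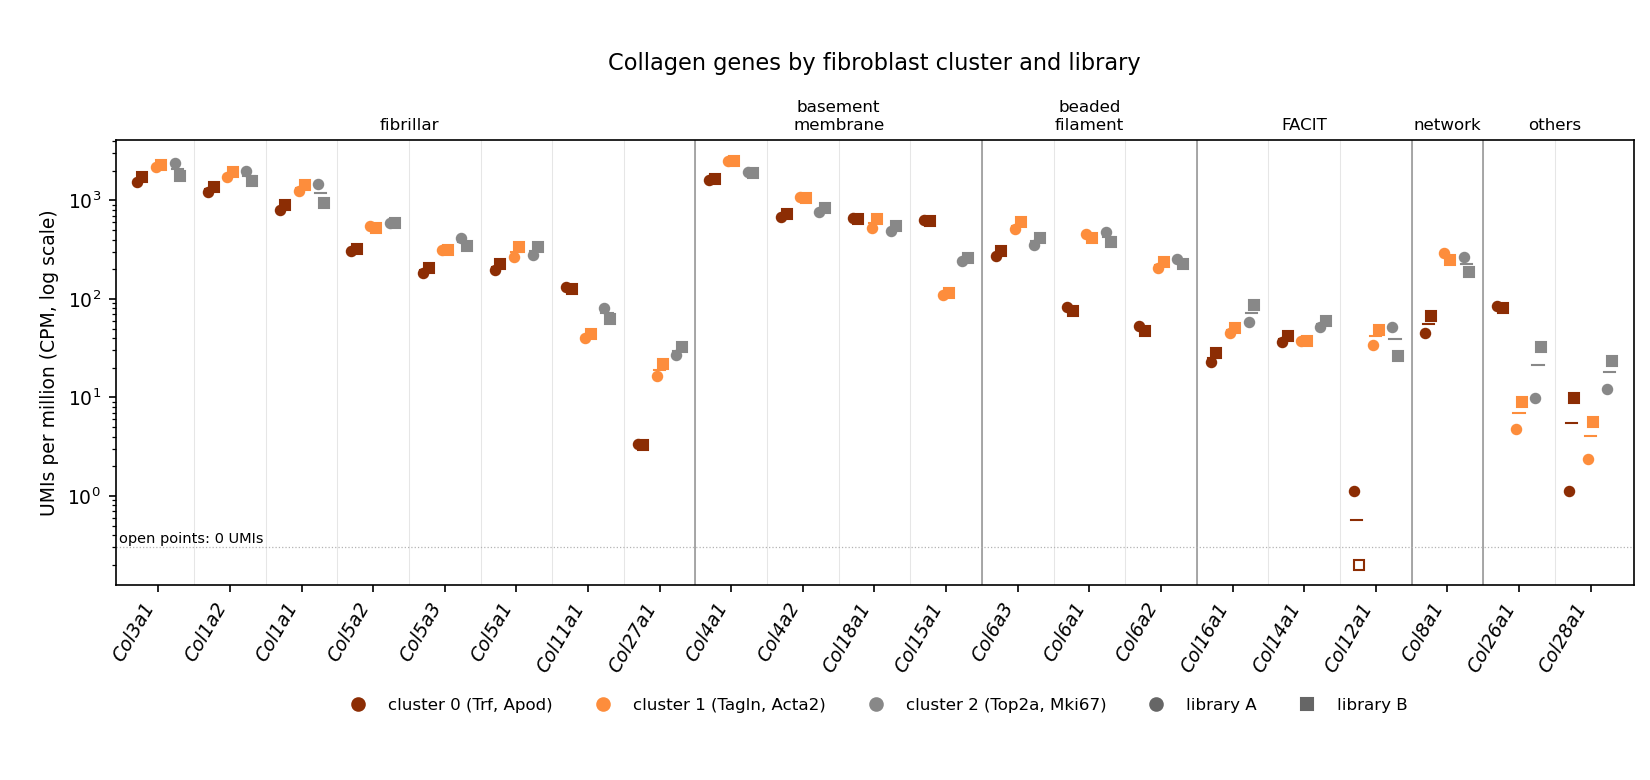
The same 21 collagen genes in the 3 fibroblast clusters, in CPM on a log axis, with library A as circles and library B as squares. Cluster 0 is highest in Col15a1, Col11a1 and Col26a1 and lowest in Col6a1, Col6a2, Col8a1, Col12a1 and Col27a1, and the libraries of a cluster mostly sit close together.

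The genes that modify, process and bind collagen were described from lists. Of 28 biosynthesis genes tested, 21 were higher and 4 lower in fibroblasts than in glia, beside 25.0% higher and 30.9% lower of all genes. Lox, which cross-links collagen, had 64.0 and 68.6 CPM in fibroblasts, against 0.355 and 0.152 CPM in glia. Its relative Loxl1 had 100.04 and 92.8 CPM in fibroblasts, against 11.03 and 11.6 CPM in glia (log2 fold change 3.32, SE 0.12), and Pcolce, which enhances removal of the C-propeptide, had 269.7 and 300.2 CPM against 40.2 and 40.8 CPM (3.05, SE 0.07). Serpinh1, the collagen chaperone, had 974 and 969 CPM in fibroblasts, 37.1 and 50.8 CPM in neurons, 152 and 72.9 CPM in macrophages, and 486 and 489 CPM in glia. Serpinh1 was therefore highest in fibroblasts and next in glia, as the collagen share was. The order of macrophages and neurons in that share was not stable. In neurons 3 biosynthesis genes were higher and 24 lower than in glia (40.9% and 43.0% of all genes), and in macrophages 1 was higher and 12 lower (12.2% and 21.9% of all genes). The exception with the largest change in neurons was Pcolce2, a second propeptidase enhancer, with 201 and 224 CPM in neurons against 12.8 and 15.8 CPM in glia (log2 fold change 3.93, SE 0.07).

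Between glial states, 6 of 26 biosynthesis genes were higher and 9 lower in repair-like glia, beside 19.5% and 16.6% of all genes. Pcolce2 was higher (31.5 and 40.0 CPM in cluster 2, against 2.99 and 2.51 CPM in cluster 0), as were Bmp1, the C-propeptidase (log2 fold change 0.99, SE 0.08), and Loxl2, a cross-linking oxidase (0.96, SE 0.10). Pcolce was lower (22.3 and 20.4 CPM against 48.3 and 49.8 CPM), so the related enhancers went opposite ways. P4ha3, a prolyl hydroxylase subunit, was lower too (1.14 and 2.02 CPM in cluster 2, against 18.5 and 17.4 CPM in cluster 0), as was Colgalt2, a collagen galactosyltransferase, with 3 UMIs in cluster 2 of each library. Serpinh1 did not pass the test (-0.08, SE 0.03, adjusted p = 0.070). In cycling glia 7 of 26 were higher and 6 lower, near the 25.3% and 23.4% of all genes, with Serpinh1 among the lower (-0.39, SE 0.03).

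Of 10 collagen receptors tested, 3 were higher and 7 lower in fibroblasts than in glia, beside 25.0% and 30.9% of all genes. The discoidin receptors were on opposite sides: Ddr2 had 78.5 and 77.2 CPM in fibroblasts, against 18.0 and 17.7 CPM in glia (log2 fold change 2.36, SE 0.11), and Ddr1 had 11.7 and 16.0 CPM against 42.7 and 42.5 CPM (-1.37, SE 0.17). Mrc2, which takes up collagen fragments, had 90.7 and 84.6 CPM in fibroblasts, against 0.433 and 0.571 CPM in glia. Adgrg6, a receptor for type IV collagen that Schwann cells need for myelination, had 7.95 and 8.21 CPM in fibroblasts, 12.2 and 13.4 CPM in neurons, 45.2 and 22.9 CPM in macrophages, and 137 and 136 CPM in glia. It was lower in repair-like than in SGC-like glia by a small margin (111 and 114 CPM in cluster 2, against 158 and 154 CPM in cluster 0; log2 fold change -0.26, SE 0.06), where Col4a1 was lower by 1.36. Lair1, an inhibitory collagen receptor of leukocytes, was higher in macrophages (42.8 and 37.5 CPM) than in glia (2.40 and 2.28 CPM; log2 fold change 4.24, SE 0.41). Neurons had 0 receptors higher and 8 lower than glia (the same counts with DESeq2, and 0 higher at an unadjusted p under 0.05), and macrophages 1 higher and 6 lower, where 43.0% and 21.9% of all genes were lower in neurons and in macrophages. In repair-like glia 2 of 8 receptors were higher and 4 lower (19.5% and 16.6% of all genes), Ddr2 among the lower (-1.30, SE 0.21), and in cycling glia 2 were higher and 4 lower (25.3% and 23.4% of all genes).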

How the data were processed

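For each of libraries A and B (10x 3′ v3, DRG cells after 72 h in culture) the authors deposited a matrix of UMI counts with no normalization. The paper and the processing notes name Cell Ranger 3.0.2 and Seurat 3, the matrix header carries 3.1.0, and reads were aligned to mm10 (Ensembl 93 gene models).

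Cells with at least 200 genes and at most 10% mitochondrial UMIs were clustered with Seurat 5.3.0 (2000 variable genes, 20 dimensions, resolution 0.18). The 88 collagen and pathway genes were held out of variable genes, dimensions and naming. Classes were named by marker lists. Scrublet (scanpy 1.11.5) called 0 cells in A and 4 in B, too few to have worked, so the top 5% of scores was removed only as an alternative.

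Counts were summed per library and group and tested with edgeR 4.0.16 in R 4.3.3 (quasi-likelihood test with the library as blocking factor, TMM scaling, genes kept by filterByExpr, Benjamini-Hochberg over all genes tested, called at 0.05). Log2 fold changes are after TMM scaling, and CPM is before it. An SD is over 2 libraries. An SE is the absolute log2 fold change divided by the square root of the test's F value, not a separately fitted standard error. The edgeR step was tested on simulated data. The study's own test over single cells was not used, since cells are not replicates. Counting error alone limits members under 20 CPM, and 1 UMI in macrophages is worth over 2 CPM.

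Named members reached 20 CPM in a class or glial state in both libraries, or were among the 10 largest called changes in a direction; Col6a6 and the small counts of Col25a1 and Col24a1 were named after their values were seen. Members and lists were chosen with earlier results of these data known, and no list is independent evidence. In the annotation, same-strand genes overlap Col1a2, Col3a1, Col4a1, Col4a3, Col4a5, Col4a6, Col5a2, Col6a3, Col7a1, Col19a1, Col20a1, Col24a1, Col25a1, Col26a1 and Col27a1, and reads there could be shared.

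The planned protein table was not used here; Gly runs came from GENCODE coding sequence. Library numbers did not pair the groups: correlations of same-library deviations between groups ran from -0.025 to 0.052. Alternatives were DESeq2 1.42.0, RLE factors, a fit without the library block, unfiltered genes, mitochondrial limits of 5% and 20%, resolutions of 0.3 and 0.5, collagens used for clustering, doublet scores, each library left out, and, chosen after seeing the data, leaving out glial cluster 3 or neuron cluster 5.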

Additional observations from a re-analysis of the deposited data

How the results depend on the processing

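Among 2269 fold changes of named members under alternatives, 84 lost the call (48 of them with DESeq2), 29 gained it and 18 turned. To turn means a change of sign where at least 1 of the fits compared was called. The other 2138 did none of these, and a change of sign where neither fit was called is counted among them. Values with a library left out carried no test, so only their direction was compared. In cycling against resting glia, Col1a1 turned with collagens used for clustering (-0.58), at mitochondrial limits of 20% (-0.36) and 5% (-0.06) and without glial cluster 3 (-0.26), and Col6a2 turned with collagens used for clustering (-0.76) and at 20% (-0.56). There Col15a1 (0.11), Col4a1 (-0.03) and Col4a2 (-0.01) turned at resolution 0.3, Col6a3 (0.06) and Col8a1 (0.98) at resolution 0.5, and Col3a1 (-0.01) at a limit of 20%. In repair-like against SGC-like glia, Col15a1 turned with collagens used for clustering (-0.11), at 20% (-0.03) and without cluster 3 (-0.04). Col5a3 in fibroblasts turned at 5% (0.24), Col6a3 in macrophages with the highest doublet scores removed (-3.19), and Col1a1 in the Anxa1 and Ano3 neurons without library B (-0.07, and 1.17 without A). The causes were not tested. The count of members that differed between neuron clusters was 17 of 18 in 5 fits, and 7 of 13 in 2 fits at 5%, where calls over all genes fell to 1937 of 9620. The collagen share was 1.05% in fibroblasts, 0.0875% in neurons and 0.593% in glia as a mean over cells, and 0.144% (A) and 0.0759% (B) in macrophages. It was 1.11% in fibroblasts, 0.0446% in neurons and 0.544% in glia at 5%, and in fibroblasts 1.07% at 20%. With the highest doublet scores removed it was 1.09% in fibroblasts and 0.0806% in macrophages. Without one library, it ran from 1.08% to 1.08% in fibroblasts, 0.0506% to 0.0622% in neurons, 0.104% to 0.217% in macrophages and 0.578% to 0.579% in glia. Without the replicate block, 17 members were called in macrophages in place of 18, and no other count of collagens moved; receptors called lower in macrophages were 7 in place of 6, and higher in repair-like glia 1 in place of 2. At 5% most of the 9436 glia were lost, leaving 706 repair-like and 416 and 229 cycling cells. No SGC-like cluster was found there, so the repair-like comparison has no value at 5%. The resting side of the cycling comparison was then repair-like alone, and glial values at 5% describe a different set of cells. Depth limits the small groups: a floor of 3 UMIs was worth 7.13 CPM (A) and 6.25 CPM (B) in macrophages, 7.32 and 8.87 CPM in fibroblast cluster 2, and 45.5 and 24.2 CPM in neuron cluster 5.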

Other observations

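Several members stayed below 20 CPM in every class and still showed a pattern in small counts. Col24a1, a fibrillar chain, had 8 and 4 UMIs in the neurons led by S100b and Ngfr (3.58 and 2.44 CPM), against 2 UMIs in the other 4 neuron clusters together, and was thus found in the same cluster as Col25a1. Col6a4 was seen in neurons alone, with 6 and 7 UMIs. Col6a5 was seen in neurons (13 and 5 UMIs) and fibroblasts (2 and 2 UMIs) and not in 9436 glia or 83 macrophages. Col8a2 had 1 UMI in each library, both in fibroblasts.

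A cluster of 33 cells within the neuron class (12 in A and 21 in B), led by Mgp, Spp1 and Apoe, had a median of 4558 UMIs and was left out of the test between neuron clusters. Its glial markers summed to 4473 CPM, against 4086 CPM in all glia, and its neuron markers to 4509 CPM, against 15834 CPM in all neurons, so the markers go against the class name. Its collagen share was 0.483% and 0.673%, near that of glia, and Col28a1 stood at 243 and 249.7 CPM, against 197 and 191 CPM in all glia. Without these cells, collagens made up 0.0481% and 0.0537% of neuron UMIs.

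The collagen share measured per cell was spread within a glial cluster. With a median of 4152.5 UMIs per cell in cluster 0 and 3947 in cluster 2, counting error adds to this spread. Its part was not tested. In the SGC-like cluster 0 the median cell had 0.646% of its UMIs from collagens, with 0.521% and 0.793% at the quartiles, and in the repair-like cluster 2 the median was 0.567%, with quartiles of 0.404% and 0.744%.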
